A study of Homo sapiens with 9 samples.

Results

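This report describes the genes of the cytosolic ribosomal proteins, the protein components of the large and the small ribosomal subunit, in LNCaP cells treated with an androgen and with gedunin. Members were taken by gene symbol: RPL or RPS followed by a digit, or RPLP0, RPLP1, RPLP2 or RPSA, on probe sets that the platform annotation gives exactly 1 symbol, without pseudogenes and without the S6 kinases. This gave 96 probe sets of 58 genes, among 19064 probe sets of 11963 genes. They comprise 29 large subunit genes, 2 genes of the acidic stalk, 20 small subunit genes and 7 paralogs (RPL3L, RPL10L, RPL26L1, RPL36AL, RPL39L, RPS4Y1 and RPS27L). A further 62 probe sets carry a ribosomal symbol beside other symbols, in most cases small nucleolar RNAs encoded in introns of the same gene. They are outside the members, and their values are not given by gene. Some belong to genes that are members through another probe set, such as RPL27A and RPLP2. Genes without a probe set that met the rule are not analysed here. Among them are RPLP0, RPSA, RPL4, RPL5, RPL7A, RPL10, RPL13, RPL13A, RPL17, RPL21 and RPL23. RPL28, RPL36A, RPS2, RPS3A, RPS13, RPS20, RPS26 and RPS27A are absent as well.

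Each ribosome holds 1 copy of nearly every ribosomal protein, so growing cells keep these transcripts among their most abundant. In mammals most of them begin with a terminal oligopyrimidine (TOP) tract, a C followed by a run of C and T, through which the kinase complex mTORC1 and the RNA-binding protein LARP1 control their translation and stability. Several ribosomal proteins act outside the ribosome, such as RPL11, which binds the p53 ligase MDM2 when ribosome assembly fails.

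LNCaP is a human prostate cancer line derived from a lymph node metastasis that responds to androgen, and all 9 arrays hold this 1 line. All cultures spent 2 days in RPMI with 10% charcoal-stripped serum, which lacks most steroid hormones. The gedunin group then received 20 µM gedunin, a plant limonoid known as an inhibitor of HSP90 function, together with 1 nM R1881, a synthetic androgen, for 24 h. The group labelled R1881 received 1 nM R1881 with DMSO, for 24 h by its protocol and 6 h by its titles, and the group labelled vehicle received ethanol and DMSO for 24 h. Each group had 3 arrays marked as biological replicates. No group received gedunin alone.

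The androgen-induced genes went against 2 of the labels. KLK3, which encodes prostate-specific antigen, measured 6872, 7144 and 7630 on the gedunin arrays, 1375, 1424 and 1224 in the group labelled R1881 and 11947, 12290 and 11280 in the group labelled vehicle (intensity). FKBP5, KLK2 and TMPRSS2 had the same order, with FKBP5 on the arrays labelled R1881 below the lowest array median. These labels stand behind each direction given below for the 2 groups, and KLK3, KLK2, TMPRSS2 and FKBP5 go against them. If the 6 h of the titles holds, treatment time differs between the groups as well and cannot be told apart from treatment. Array medians lay between 52.4 and 54.5, and r across genes was 0.996 to 0.998 within groups and 0.972 to 0.983 across groups. All 6 measured luminal markers lay above the lowest array median, against 0 of 3 basal, 3 of 5 fibroblast and 1 of 4 leukocyte markers. The summed level of the luminal list lay between 13.76 and 13.90 on the gedunin arrays (log2). It lay between 12.21 and 12.40 in the group labelled R1881 and between 14.79 and 14.91 in the group labelled vehicle. The list includes KLK3, KLK2 and TMPRSS2, so its sum in part repeats their order and is no separate measure of luminal content. Its part in the results was not tested. The fibroblast and leukocyte sums overlapped between all groups, and the basal sum, on genes all below the lowest array median, was lower on the arrays labelled R1881 (6.07 to 6.15) than on the gedunin arrays (6.18 to 6.23) and those labelled vehicle (6.16 to 6.26).

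The start sites of several members are shown because the TOP tract is the feature that most of these genes share and that the rule did not use. RefSeq's table (GRCh38.p14) held the start region of 50 of the 58 genes. A tract was counted where the first transcribed base was a C and at least the next 4 bases were each C or T. It was found in 34 of the 50 members (68%), against 1404 of 27305 genes in the table (5.14%). Each line below gives 15 bases before and 15 bases from the annotated start, 5′ to 3′, with the tract in capitals.
RPL14, chr3:40457324-40457353, plus strand: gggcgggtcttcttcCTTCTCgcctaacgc
RPL22, chr1:6199581-6199610, minus strand: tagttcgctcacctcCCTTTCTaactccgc
RPL27A, chr11:8682777-8682806, plus strand: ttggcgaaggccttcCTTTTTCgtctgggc
RPL36, chr19:5690280-5690309, plus strand: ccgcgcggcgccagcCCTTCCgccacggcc
RPS3, chr11:75399503-75399532, plus strand: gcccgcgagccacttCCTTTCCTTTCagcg
RPS19, chr19:41860240-41860269, plus strand: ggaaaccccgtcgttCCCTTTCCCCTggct
RPS27, chr1:153990747-153990776, plus strand: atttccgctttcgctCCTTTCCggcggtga
RPS27L, chr15:63157463-63157492, minus strand: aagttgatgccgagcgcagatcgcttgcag
RPS4X, chrX:72277234-72277263, minus strand: gcagtctccagccccaatttctacgcgcac
RPS4Y1, chrY:2841587-2841616, plus strand: ggaaaagaacagattCTCTTCCgtcgcaga
RPL36AL, chr14:49620612-49620641, minus strand: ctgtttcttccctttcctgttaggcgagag
The tract starts at the annotated start in 33 of 45 genes of the core subunits and in 1 of 5 paralogs with a sequence, RPS4Y1. RPS27L, RPL36AL, RPL10L and RPL26L1 lacked it there. Where no tract is marked, only these letters are absent at this position, and nothing follows for the transcript's control.

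The ribosomal protein genes were among the brightest on the arrays. Their median level was 12.97 on the log2 scale, against 6.14 for all genes, and 35 of the 50 genes with the highest level were members. In the top 5% of all genes, which held 599, lay 53 of the 58. The 3 members whose probe set lay below the lowest array median (5.71, log2) were the stalk gene RPLP2 and the paralogs RPL3L, known from muscle, and RPL39L, known from testis. Such values cannot be told from background, so the low level concerns these probe sets. Replicates of a member were closer than those of other genes, with a median residual SD of 0.034 against 0.084 for all genes (log2). No member had 3 equal deposited values within a group.

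The 3 groups differed little and in a shared way. The median over the 58 members was 12.91 on each of the 3 gedunin arrays, 13.02, 13.01 and 13.00 in the group labelled R1881 and 12.95, 12.96 and 12.96 in the group labelled vehicle (log2). These 3 sets of values did not overlap. The group labelled R1881 had the highest mean in 41 of 58 members, against 36.0% of all genes, and the gedunin group the lowest in 37 of 58, against 34.3% of all genes. A moderated F-test over the 3 groups called 16 members (27.6%), against 39.3% of all genes (limma, Benjamini-Hochberg adjusted over all genes at 0.05, as in every call below). The share called depends on the prior spread, which does not follow brightness here. With a prior that does, given below, more members were called in each comparison. In the first and second the share of members called then exceeded that of all genes. At its brightest probe set, no member changed by 1.5-fold in any comparison. Of all genes 8.46%, 7.16% and 7.03% did so in the first, second and last of the 3 comparisons below. Dimmer probe sets passed this size for RPL31, at a log2 fold change of 0.61 in the first, and for RPL37A, at -0.62 in the second. That of RPL37A lay below the lowest array median. The arrays share nearly 1 distribution after the authors' normalization, so a shift common to all transcripts would leave no trace. In bulk RNA, fewer cells with a transcript and less of it per cell cannot be told apart.

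**Figure D1:**
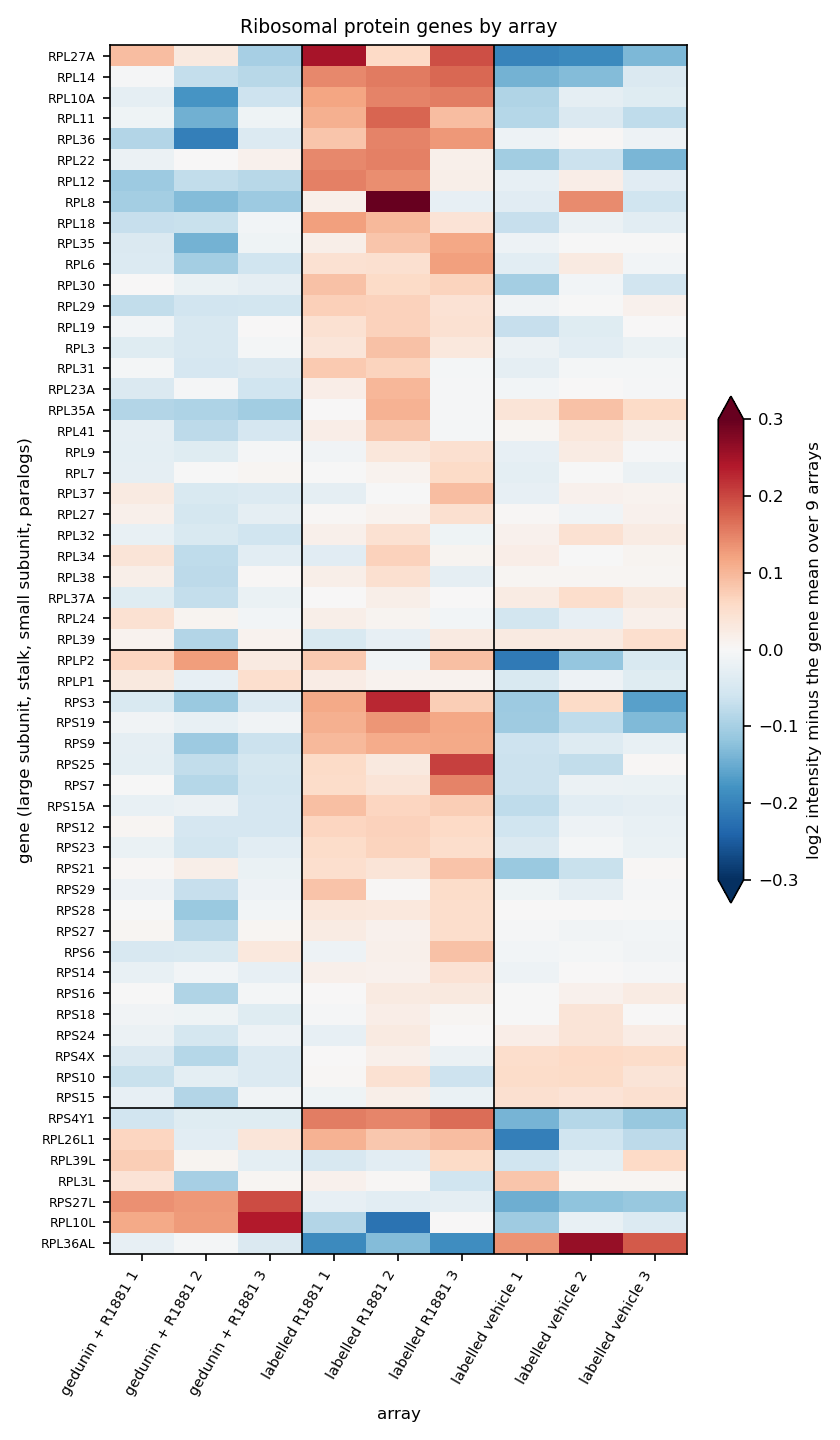
Log2 intensity of each of the 58 genes on each of the 9 arrays, as the difference from the gene's mean over the 9 arrays; rows run by role (large subunit, stalk, small subunit, paralogs) and columns by group, with the colour scale saturating at 0.3. Most rows are red on the 3 arrays labelled R1881, while RPS27L and RPL10L are red on the gedunin arrays and RPL36AL on the arrays labelled vehicle.

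**Figure D2:**
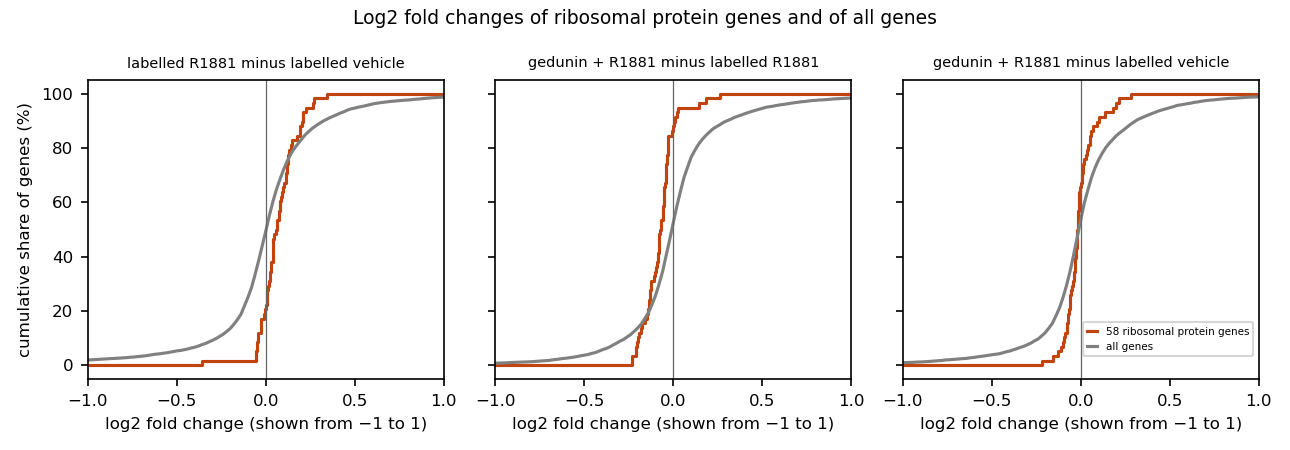
Cumulative share of genes (%) against log2 fold change in the 3 comparisons, for the 58 ribosomal protein genes and for all 11963 genes. The ribosomal curve is steeper than that of all genes and has its median at 0.06, -0.07 and -0.02.

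The first comparison, of the group labelled R1881 with the group labelled vehicle, addresses, by the labels, the response to androgen after hormone depletion. With these 2 labels exchanged, every direction in it would turn. Of the 58 members, 11 were higher on the arrays labelled R1881 and 1 was lower, by limma. Of all genes 16.7% were called higher and 13.6% lower. In all, 12 members were called (20.7%), against 30.3% of all genes, while 46 of 58 had a log2 fold change above 0, against 50.4% of all genes. The groups did not overlap for 31 members that were higher (53.4%), against 21.4% of all genes, and for 4 that were lower, against 18.4%. The median log2 fold change was 0.06 over the members and 0.00 over all genes, and the range ran from -0.36 to 0.34. Among the 29 large subunit genes 5 rose and 0 fell (median 0.06), and among the 20 small subunit genes 3 rose and 0 fell (median 0.05).

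In the large subunit, RPL14 measured 12.61, 12.54 and 12.53 on the gedunin arrays, 12.76, 12.77 and 12.78 in the group labelled R1881 and 12.47, 12.48 and 12.57 in the group labelled vehicle (log2). All 3 arrays labelled R1881 lay above the other 6. The rise over the arrays labelled vehicle was 0.26 ± 0.05 (log2 fold change, SE, limma adjusted p = 0.00196). RPL27A rose by 0.34 ± 0.07 (limma adjusted p = 0.00149), from a probe set far dimmer than those of other large subunit genes. It measured 8.58, 8.39 and 8.53 in the group labelled R1881 and 8.14, 8.14 and 8.20 in the group labelled vehicle. A further RPL27A probe set, shared with a small nucleolar RNA, was left out by the rule, so level and rise concern this probe set. RPL22, which also binds RNA outside the ribosome, rose by 0.21, and RPL11 and RPL10A each by 0.19 (SE 0.06 each).

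In the small subunit, RPS19, a protein needed to mature the small subunit and mutated in Diamond-Blackfan anaemia, measured 12.33, 12.32 and 12.33 on the gedunin arrays. It measured 12.45, 12.47 and 12.46 in the group labelled R1881 and 12.23, 12.26 and 12.21 in the group labelled vehicle. The 3 groups did not overlap, and the rise was 0.22 ± 0.05 (SE, limma adjusted p = 0.00365). RPS3, at the entrance of the mRNA channel, rose by 0.21 ± 0.07 and RPS9 by 0.15 ± 0.05. RPS3 was highest on replicate 2 of both groups, at 12.55 in the group labelled R1881 and 12.38 in the group labelled vehicle. In the stalk, which recruits elongation factors, RPLP2 rose by 0.18 ± 0.06 at a level near background, and RPLP1 was at 0.05 ± 0.05 and did not pass. For RPLP2, too, the rule left out a probe set shared with a small nucleolar RNA.

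Among the paralogs, RPL36AL, a near-identical copy of RPL36A, measured 11.49, 11.51 and 11.47 on the gedunin arrays, 11.32, 11.38 and 11.33 in the group labelled R1881 and 11.65, 11.78 and 11.70 in the group labelled vehicle (log2). The 3 groups did not overlap, and the arrays labelled R1881 were the lowest. RPL36AL fell by 0.36 on the log2 scale (SE 0.05, limma adjusted p = 0.000174). RPS4Y1, the Y-linked copy of RPS4X, measured 11.75, 11.77 and 11.77 on the gedunin arrays, 11.96, 11.95 and 11.97 in the group labelled R1881 and 11.67, 11.72 and 11.69 in the group labelled vehicle. It rose by 0.27 ± 0.05 (SE, limma adjusted p = 0.000913), and RPL26L1 rose by 0.21 ± 0.06. Probe sets of near-identical paralogs and of genes with many pseudogenes cannot be fully separated, and this holds for every value given for them.

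The count of members called higher, 11, was 7 and 6 without replicates 1 and 2 of the group labelled R1881 and 5 and 7 without replicates 1 and 3 of the group labelled vehicle. RPL10A, RPL11, RPL22, RPL26L1, RPS3, RPS9 and RPLP2 each lost the call in at least 1 of these, with adjusted p between 0.0518 and 0.17. RPL14, RPL27A, RPS19, RPS4Y1 and RPL36AL kept it in all 18 alternatives. RPL27A, RPS4Y1 and RPL36AL have 1 probe set each among the members, so alternatives in the probe set could not alter their values. With a prior spread that follows brightness (limma's trend), 23 members were called higher and 1 lower, against 17.6% and 13.8% of all genes.

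**Figure D3:**
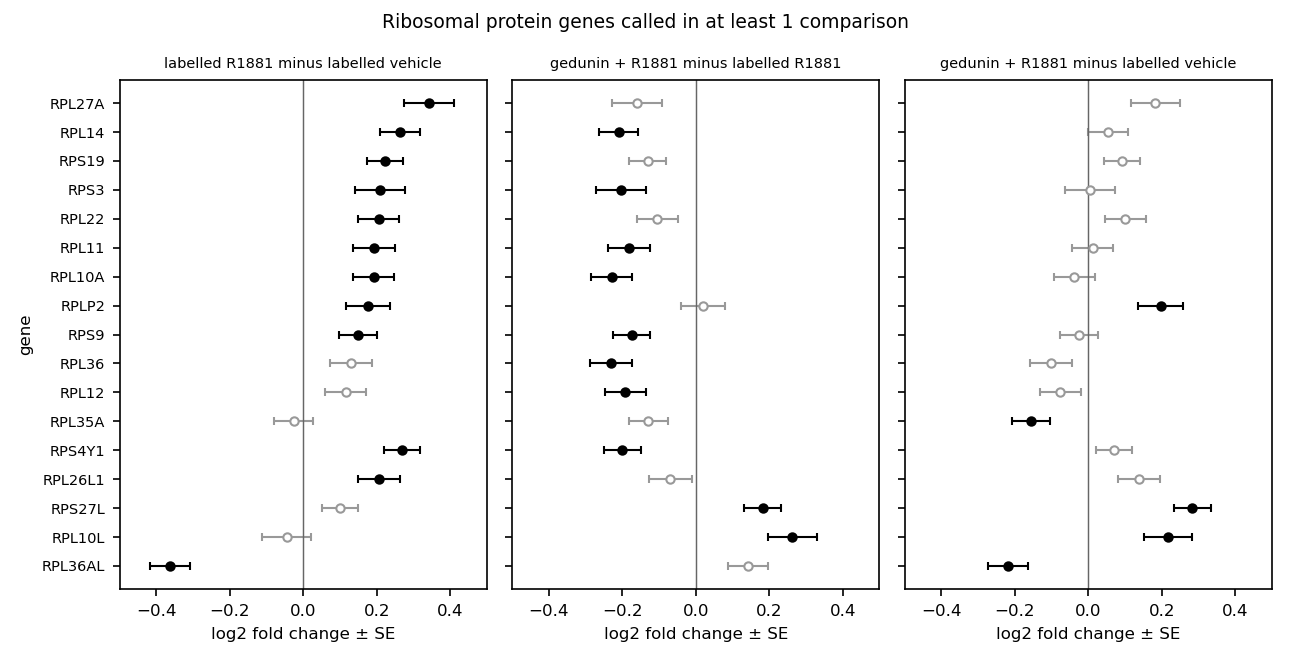
Log2 fold change ± SE (limma, 3 arrays per group) of the 17 genes called in at least 1 comparison, with core genes above paralogs; filled points passed an adjusted p of 0.05 and open points did not. In the first panel 11 genes lie right of 0 and pass, in the second 8 lie left of 0 and pass, and the last panel has 3 and 2.

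The second comparison, of the gedunin group with the group labelled R1881, addresses, by the labels, the effect of gedunin added to androgen. With the labels R1881 and vehicle exchanged, these groups would differ by both agents. Of 58 members, 8 fell and 2 rose, by limma. Of all genes 13.4% were called lower and 14% higher. In all 17.2% of the members were called, against 27.4% of all genes, while 51 of 58 had a log2 fold change below 0, against 52.6% of all genes. All 20 small subunit genes lay below 0, 2 of them called, and 28 of 29 large subunit genes, 5 of them called. The median log2 fold change was -0.07 over the members and -0.01 over all genes. The groups did not overlap for 36 members that were lower on the gedunin arrays (62.1%), against 19.2% of all genes, and for 3 that were higher, against 18.4%. This comparison shares the arrays labelled R1881 with the first.

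RPL36, a large subunit protein, measured 11.35, 11.23 and 11.40 on the gedunin arrays, 11.52, 11.59 and 11.57 in the group labelled R1881 and 11.42, 11.44 and 11.42 in the group labelled vehicle (log2). The gedunin arrays were the lowest of the 9. RPL36 fell by 0.23 on the log2 scale (SE 0.06, limma adjusted p = 0.00753). RPL10A, at 12.35, 12.20 and 12.31 on the gedunin arrays and 12.49, 12.52 and 12.53 on the arrays labelled R1881, also fell by 0.23 (SE 0.06, limma adjusted p = 0.00736). RPL14 fell by 0.21, RPL12, which sits at the base of the stalk, by 0.19, RPL11 by 0.18, RPS3 by 0.20, RPS9 by 0.17 and RPS4Y1 by 0.20. RPL22 (-0.10 ± 0.06), RPS19 (-0.13 ± 0.05) and RPL27A (-0.16 ± 0.07) did not pass. With limma's trend RPS19 (adjusted p = 0.00106) and RPL22 (0.0428) passed, and RPL27A (0.0743) did not. With every probe set tested, the dimmest of RPL22 were called lower, at -0.24 and -0.19. Its other bright ones, at -0.04 and -0.09, and the dimmer one of RPS19, at -0.10, were not.

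Both members that rose were paralogs. RPS27L, a copy of RPS27 known as a target of p53, measured 11.58, 11.57 and 11.64 on the gedunin arrays, 11.42, 11.41 and 11.41 in the group labelled R1881 and 11.29, 11.32 and 11.33 in the group labelled vehicle (log2). The gedunin arrays were the highest and the arrays labelled vehicle the lowest, without overlap. The rise over the arrays labelled R1881 was 0.18 ± 0.05 (SE, limma adjusted p = 0.0148). RPL10L, a copy of RPL10 known from testis, measured 7.45, 7.46 and 7.57 on the gedunin arrays, 7.25, 7.11 and 7.34 in the group labelled R1881 and 7.23, 7.31 and 7.29 in the group labelled vehicle. It rose by 0.26 ± 0.07 (SE, limma adjusted p = 0.00883), with all 3 gedunin arrays above the other 6.

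Of 6 further core genes, described whatever their values or as the parent of a paralog, none was called. RPL41, the brightest gene on the arrays, was at -0.08 (unadjusted 95% interval from limma, -0.20 to 0.03), RPL3 of the peptidyl transferase centre at -0.08 (-0.19 to 0.03) and RPS6, the substrate of the S6 kinases, at -0.05 (-0.17 to 0.07). RPS14 was at -0.04 (-0.15 to 0.06), RPS27 at -0.05 (-0.17 to 0.06) and RPLP1 at 0.00 (-0.11 to 0.11). None of these 6 passed in any of the 3 comparisons without limma's trend. The intervals allow changes of up to 0.20 on the log2 scale here. RPL41 (adjusted p = 0.0134) and RPL3 (0.0181) passed with limma's trend, both lower on the gedunin arrays than on those labelled R1881. RPL41 also passed with it between gedunin and vehicle (0.0368), and RPL3 between the groups labelled R1881 and vehicle (0.0281). RPS6, RPS14, RPS27 and RPLP1 did not pass with it in any comparison.

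The count of members that fell, 8, was 5 without replicate 1 or 2 of the group labelled R1881 or replicate 2 of the gedunin group, and the count that rose, 2, was 1 without replicate 3 of the gedunin group, where the adjusted p of RPS27L was 0.0582. RPL11, RPL12, RPS3 and RPS9 each lost the call in at least 1 of these 4, with adjusted p up to 0.154. With the trended prior, 27 members fell and 3 rose, against 14.1% and 14.4% of all genes. Normalizing the arrays once more by quantiles gave 18 lower and 1 higher, against 15.6% and 13.1% of all genes, and RPS27L was at 0.08 there and did not pass (adjusted p = 0.248).

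The last comparison is that of the gedunin group with the group labelled vehicle, which by the labels differ by both agents. With the labels R1881 and vehicle exchanged, these groups would differ by gedunin alone. By limma 3 members rose and 2 fell. Of all genes 15% were called higher and 11.9% lower. In all 8.62% of the members were called, against 26.9% of all genes, and 38 of 58 had a log2 fold change below 0, against 53.6% of all genes. The median log2 fold change was -0.02 over the members and -0.01 over all genes. The groups did not overlap for 8 members that were higher, against 19.5% of all genes, and for 16 that were lower, against 18.8%. RPS27L rose by 0.28 ± 0.05 (SE, limma adjusted p = 0.000787), a 1.22-fold change, and RPL10L by 0.22 ± 0.07. RPLP2 rose by 0.20 ± 0.06, again near background, where its other probe set gave -0.15. RPL36AL fell by 0.22 on the log2 scale (SE 0.05, limma adjusted p = 0.00824), and RPL35A, another Diamond-Blackfan anaemia gene, by 0.16 (limma adjusted p = 0.0449).

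RPL10A, RPL14, RPL11, RPS3, RPS9 and RPS4Y1, which were called in both comparisons with the arrays labelled R1881, were at -0.04, 0.05, 0.01, 0.01, -0.03 and 0.07 here. Their SE lay between 0.05 and 0.07, and none passed. The third difference is the sum of the first and the second. These genes were picked by a called rise and a called fall there, so values near 0 follow in part from the choice. The calls of RPS27L and RPL36AL held in all 18 alternatives, of which those in the probe set could not alter their values. RPL35A lost its call in 10 of 18, among them every setting without 1 gedunin or vehicle array. The count that rose, 3, was 1 without replicate 1 of the group labelled vehicle, where RPL10L had an adjusted p of 0.101 and RPLP2 of 0.125. The count that fell, 2, was 1 without any single array of the gedunin or vehicle groups or without replicate 1 of the group labelled R1881, and subtracting array medians gave 3 higher and 1 lower. With the trended prior 5 rose and 8 fell, against 15.7% and 12.1% of all genes.

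Each paralog was also set against its parent gene within each array, which was possible for 4 pairs and gave 12 comparisons. RPS27L minus RPS27 was -1.95, -1.87 and -1.89 on the gedunin arrays, -2.13, -2.12 and -2.16 in the group labelled R1881 and -2.22, -2.19 and -2.18 in the group labelled vehicle (difference of log2 intensity). The difference of means was 0.24 between the gedunin arrays and those labelled R1881 and 0.30 between the gedunin arrays and those labelled vehicle. RPS4Y1 minus RPS4X was -1.43, -1.37 and -1.42 on the gedunin arrays, -1.27, -1.29 and -1.24 in the group labelled R1881 and -1.61, -1.57 and -1.59 in the group labelled vehicle. For both pairs the 3 groups did not overlap, and each exact two-sided permutation p was 0.1, the smallest that 3 arrays against 3 allow (0.171 after Benjamini-Hochberg adjustment over the 12). Against the arrays labelled vehicle, RPS4X itself was at -0.06 on the arrays labelled R1881 and at -0.11 on the gedunin arrays. RPS4Y1 was at 0.27 and 0.07 there, so with gedunin the parent lay further from 0. Between the gedunin arrays and those labelled R1881, RPS4X was at -0.06 and RPS4Y1 at -0.20. RPS4X was not called by limma, but passed between gedunin and vehicle with the trended prior (adjusted p = 0.00112). The probe sets of RPL39L and RPL3L lay below the lowest array median. RPL39L minus RPL39 differed between groups by 0.03 to 0.09, with exact permutation p of 0.2 to 0.5. For RPL3L minus RPL3 the arrays labelled R1881 and vehicle differed by -0.12 without overlap (exact permutation p = 0.1). Absolute differences between 2 probe sets carry no meaning here, since probes bind with unequal strength, and only their change between groups is read.

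**Figure D4:**
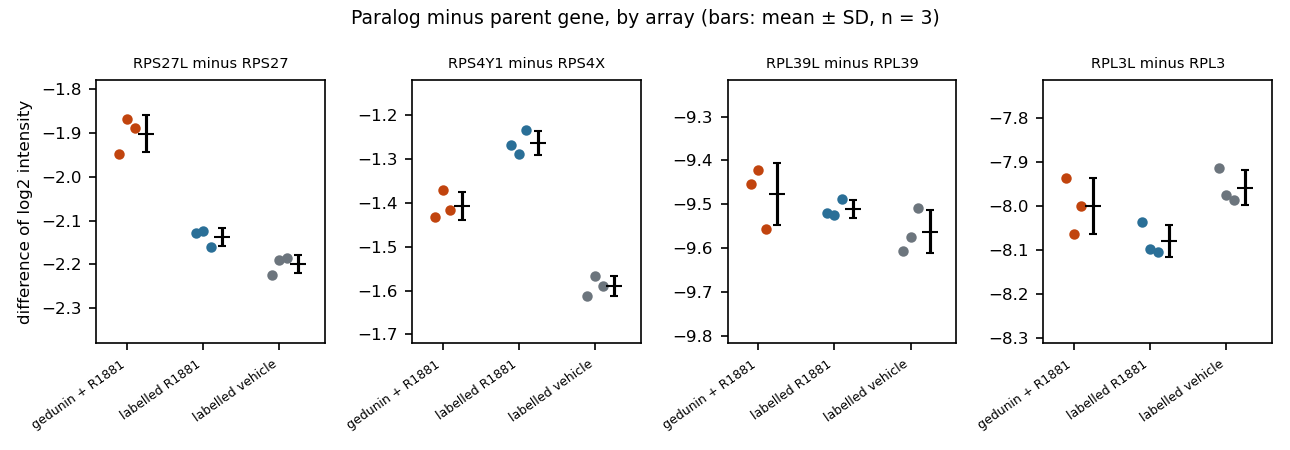
Log2 intensity of the paralog minus that of its parent gene on each array (points) with mean ± SD of the 3 arrays of a group (bars), on axes of equal height. RPS27L minus RPS27 is highest on the gedunin arrays, and RPS4Y1 minus RPS4X is highest on the arrays labelled R1881 and lowest on those labelled vehicle.

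Other probe sets of the same genes in part gave larger differences and in part smaller ones. Of the 58 genes 23 had several probe sets, 61 in all, and none had probe sets called in opposite directions in any comparison. Of 30 dimmer probe sets above the lowest array median, 17 lay further from 0 than the brightest of the gene in the first comparison, 19 in the second and 22 in the third. RPL14 and RPS12 were among those with a dimmer probe set nearer to 0 in the first, at 0.02 and -0.02, where their brightest had 0.26 and 0.10. Of the dimmer probe sets, 13 of 10 genes lay above the lowest array median and below 10 on the log2 scale, a limit chosen after the values were seen. Their median log2 fold change was 0.18 between the arrays labelled R1881 and vehicle, where the brightest probe sets of the same genes had 0.08, and -0.19 between the gedunin arrays and those labelled R1881, where the brightest had -0.09. Between the gedunin arrays and those labelled vehicle the medians differed in sign, at 0.11 for the dimmer and -0.01 for the brightest.

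RPL31, RPL37A, RPL38 and RPL22 serve as examples and were picked after their values were seen. For RPL31, a large subunit protein at the peptide exit, the brightest probe set averaged 12.96 ± 0.02 on the gedunin arrays, 13.04 ± 0.05 in the group labelled R1881 and 12.98 ± 0.01 in the group labelled vehicle (log2, SD, n = 3). A dimmer one averaged 7.56 ± 0.09, 7.88 ± 0.14 and 7.27 ± 0.03 in the same 3 groups, a rise of 0.61 ± 0.07 on the arrays labelled R1881 over those labelled vehicle (limma over every probe set, adjusted p = 2.72e-05). RPL38 had 0.01 at its brightest probe set and 0.49 and 0.37 at the dimmer ones, and RPL37A had -0.03 at its brightest and 0.45 at a dimmer one. RPL22 had between 0.16 and 0.21 at 3 bright probe sets and 0.42 and 0.40 at 2 dimmer ones. What separates the probe sets of 1 gene was not tested. With every probe set tested as its own feature, 26 of 96 were higher and 1 lower on the arrays labelled R1881 than on those labelled vehicle, against 15.2% and 12.9% of all probe sets with 1 symbol. On the gedunin arrays against those labelled R1881, 2 were higher and 20 lower, against 13.2% and 12%. On the gedunin arrays against those labelled vehicle, 5 were higher and 2 lower, against 13.8% and 11%.

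**Figure D5:**
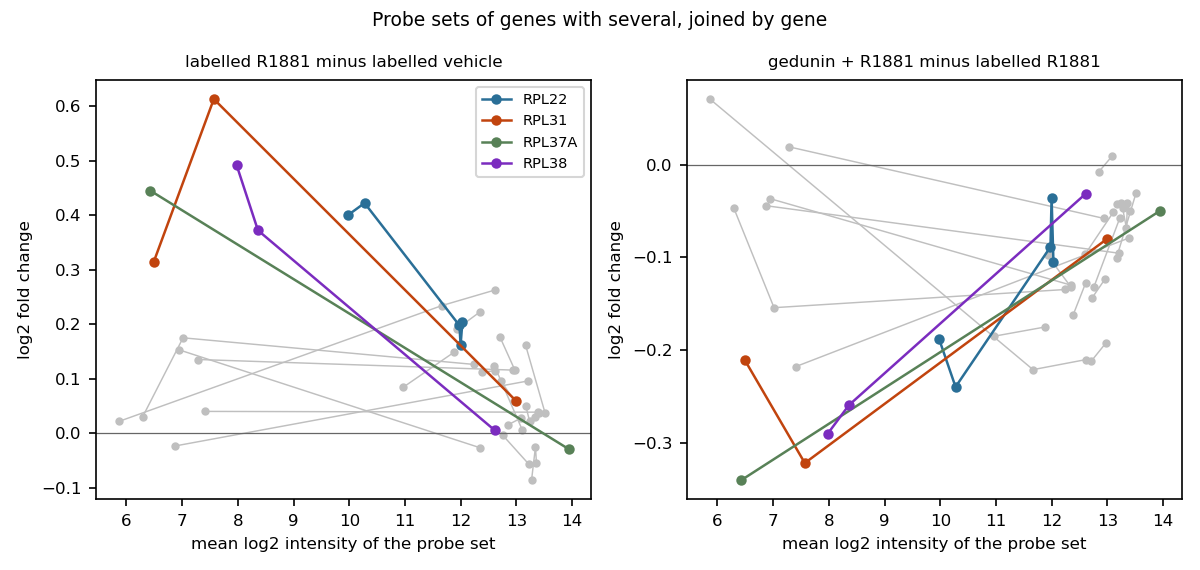
Log2 fold change against mean log2 intensity of each probe set above the lowest array median, for ribosomal protein genes with several probe sets, joined by gene. The dimmer probe sets of RPL31, RPL37A and RPL38 lie further from 0 than the brightest in both comparisons, as do the 2 dimmest of RPL22.

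Probe sets that carry 1 ribosomal gene together with small RNAs or pseudogenes of it, and no other symbol, numbered 49 and are outside the members. In a fit of all probe sets that are not controls, all 49 had a log2 fold change below 0 on the gedunin arrays against those labelled R1881, 12 of them called (median -0.09), where 11.9% of all probe sets were called lower. On the arrays labelled R1881 against those labelled vehicle 48 of 49 lay above 0, 7 of them called (median 0.06), where 14.8% of all probe sets were called higher and 12.2% lower. Against the arrays labelled vehicle, the gedunin arrays had 0 of the 49 called higher and 3 lower, where 12.9% and 10.6% of all probe sets were. Many of these probe sets share a gene, so they are not independent.

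The median log2 fold change was set out by TOP tract. In the first comparison it was 0.07 for the 34 with a tract, 9 of them called higher and 0 lower. For the 16 without it was 0.05, with 2 called higher and 1 lower. Of all genes 16.7% were called higher and 13.6% lower. In the second the median was -0.09 with a tract, 0 called higher and 7 lower, and -0.06 without, 2 higher and 1 lower. Of all genes 14% were called higher and 13.4% lower there. In the third it was -0.01 with a tract, 1 higher and 1 lower, and -0.02 without, 2 higher and 1 lower. Of all genes 15% were called higher and 11.9% lower in that comparison. The set without a tract includes the paralogs RPS27L, RPL36AL, RPL10L and RPL26L1. Its call lower in the first comparison was RPL36AL, and its calls higher in the second were RPL10L and RPS27L. The difference between these sets was not tested.

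Other genes of the translation machinery were read from lists. The shares of all genes called, to be read beside each count, were 16.7% higher and 13.6% lower in the first comparison, 14% and 13.4% in the second and 15% and 11.9% in the third. Of 18 measured translation factors and further TOP-type genes, 11 were higher and 0 lower in the group labelled R1881 than in the group labelled vehicle (median 0.22), with NAP1L1, a nucleosome assembly protein, at 0.97, EIF3H, an initiation factor subunit, at 0.46 and the RNA-binding protein gene HNRNPA1 at 0.46. On the gedunin arrays 0 rose and 6 fell against the arrays labelled R1881 (median -0.10), with NAP1L1 at -0.34, HNRNPA1 at -0.31 and NPM1, nucleophosmin, at -0.28. Against the arrays labelled vehicle 6 rose and 1 fell (median 0.10), with NAP1L1 at 0.63, EIF3H at 0.49 and EIF3F at 0.33.

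Of 19 measured factors of late subunit assembly and export, 4 were higher and 2 lower in the first comparison, 3 and 7 in the second and 4 and 4 in the third. XPO1, the export receptor of both subunits, was at 0.96 on the arrays labelled R1881 against those labelled vehicle and at -0.62 on the gedunin arrays against those labelled R1881. DIMT1, an rRNA methyltransferase, was at 0.69 and -0.89 in the same order, and PDCD2, which escorts RPS2, at 0.67 and -0.52. Several of these counts, such as 4 of 19 and 3 of 19, lie near the shares of all genes. In the third comparison EFL1, which helps release an anti-association factor from the large subunit, rose by 0.53.

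Of 17 measured genes of the mTORC1 and S6 kinase branch, 5 were higher and 6 lower in the first comparison (all genes 16.7% and 13.6%), 6 and 3 in the second (14% and 13.4%) and 4 and 4 in the third (15% and 11.9%). TSC2, which restrains mTORC1, was at -1.39 on the arrays labelled R1881 against those labelled vehicle, and MTOR, the kinase, fell too, with the means of the group labelled R1881 and of the gedunin group below the lowest array median, so that its size is not given. SESN1, an amino acid sensing inhibitor of mTORC1, rose by 1.29 on the arrays labelled R1881 against those labelled vehicle. On the gedunin arrays it fell by 2.00 against those labelled R1881 and by 0.72 against those labelled vehicle. DDIT4, a stress-induced inhibitor of mTORC1, measured 10.03 ± 0.02 on the gedunin arrays, 9.36 ± 0.06 in the group labelled R1881 and 9.31 ± 0.06 in the group labelled vehicle (log2, SD, n = 3), a rise of 0.67 and of 0.73.

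Mitochondrial ribosomal protein genes build the separate ribosome of that organelle. Of 51 measured, 15 were higher and 8 lower in the first comparison (median 0.06), 4 higher and 23 lower in the second (median -0.17) and 5 higher and 20 lower in the third (median -0.13). Of all genes 16.7% were called higher and 13.6% lower in the first, 14% and 13.4% in the second and 15% and 11.9% in the third. MRPS27 was at 0.88 in the first and -1.03 in the second, and MRPL42 fell by 0.78 in the last. The list ran from -1.05 to 0.88 in the first and from -1.03 to 0.60 in the second. The difference between the 2 sets of genes was not tested.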

How the data were processed

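RNA of 9 cultures of LNCaP cells was measured on Affymetrix arrays. The deposited intensity values are linear, 1 for each probe set on each array, and come from RMA, as the submitters' processing notes state; the software version is not given in the sources used here. RMA corrects background, normalizes the arrays by quantiles and summarises probes by median polish. Intensities were taken to log2, and for each of 11963 genes the single-symbol probe set with the highest 9-array mean was kept. Symbols were compared with RefSeq through the gene ID (GRCh38.p14, names only), which changed 0.

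Groups were taken from the titles. The test was limma's (version 3.58.1, R 4.3.3; lmFit on all 9 arrays with 1 coefficient per group, eBayes without trend, 6.38 prior degrees of freedom; two-sided, Benjamini-Hochberg adjustment over all genes at 0.05). Errors are standard errors from limma, or SDs over 3 arrays. The labels call the replicates biological and do not say more. The test was tried on simulated data, with changes placed in genes drawn from all genes. In the 3 comparisons it called 2%, 4% and 0% of 1.1-fold changes and 28%, 26% and 32% of 1.2-fold changes. At 1.5-fold the shares were 92%, 96% and 98%. Members vary less between replicates than all genes do, so these shares need not hold for them. The number of arrays limits the precision.

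Named in detail were, per comparison, up to 8 called rises and 8 called falls without overlap of the groups, both genes of each paralog pair, a fixed set of members, and up to 3 called genes of each further list. Members and lists were chosen with earlier results of these data known. Start regions come from RefSeq's table, whose entry with the longest tract was used where a gene has several. Alternatives changed normalization, prior, filter, probe set, samples in the fit, replicate block, and left out each array.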

Additional observations from a re-analysis of the deposited data

How the results depend on the processing

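Of the 27 calls of single genes in the 3 comparisons, 11 held in all 18 alternatives that gave them a value and 0 reversed. Apart from those of RPL14 and RPS19, these 11 belong to genes with 1 probe set among the members. Alternatives in the probe set could not alter the values of such genes. Counts of members called higher and lower were 11 and 1 in the first comparison, 2 and 8 in the second and 3 and 2 in the third. With another prior variance, limma's trend gave 23 higher in the first, 27 lower in the second and 5 and 8 in the third, and no moderation gave 19 and 2 in the first, 18 lower in the second and 7 lower in the third. Normalizing again by quantiles gave 18 higher in the first and 1 higher and 18 lower in the second. Keeping only genes above the median level gave 15 lower in the second, and the mean of all probe sets 13 lower in the second and 1 lower in the third. Testing every probe set gave 26 higher in the first, 20 lower in the second and 5 higher in the third. Subtracting array medians gave 1 lower in the third. Leaving out each array gave 5 to 11 higher and 1 lower in each case in the first, 1 to 2 higher and 5 to 9 lower in the second, and 1 to 3 higher and 1 to 2 lower in the third. Deviations of same-numbered arrays from their group means had r between -0.11 and 0.13 across genes, and those of unlike-numbered arrays between -0.15 and 0.17. Between the groups labelled vehicle and R1881 the same-numbered values were all above 0, at 0.13, 0.09 and 0.02. The numbers are not taken as pairs. The replicate block gave 9 higher and 1 lower in the first, 2 and 7 in the second and 3 and 1 in the third. The share of all genes called also depends on the setting. It is given above for the trended prior, for every probe set and, in the second comparison, for quantiles. For the other settings the counts of members are not set against it, and no gain particular to the members is read from them. The cause of these shifts was not tested. Precision is limited by 3 arrays per group, and signals of RPLP2, RPL3L and RPL39L lay below the lowest array median.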

Other observations

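RPL8, a large subunit gene that passed in none of the comparisons and was picked after its values were seen, had 1 array apart in each of 2 groups. It measured 12.44, 12.42 and 12.44 on the gedunin arrays, 12.56, 12.85 and 12.52 on the arrays labelled R1881 and 12.51, 12.69 and 12.48 on the arrays labelled vehicle (log2). The high array was replicate 2 in both groups, as it was for RPS3, and the gedunin arrays lay below the other 6.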
